A study of Mus musculus with 6 samples.

Results

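The miRNAs described here were the mature arms of the mouse gene Mir21a, miR-21a-5p and miR-21a-3p. They were the 2 probes named mmu-miR-21a-5p and mmu-miR-21a-3p among the 1963 miRNA probes of the array. Both were measured in whole lung RNA of C57Bl6 WT mice at day 21, on 1 one-dye (Cy3) array per mouse. The WT group was 3 mice that received saline, and the WT-BLM group was 3 mice that received bleomycin (BLM) into the trachea at 1.5 U/kg body weight. Mice were littermates aged 8 to 10 weeks, and none of those measured here carried a transgene. BLM is a cytotoxic drug that injures the lung and is followed by fibrosis, and the comparison asked which lung miRNAs changed with it.

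MiR-21 is one of the most widely expressed miRNAs of vertebrates. Its 5p arm is the one usually loaded into the silencing complex, while the 3p arm (formerly miR-21*) is mostly degraded. It is described as profibrotic, since TGFβ signalling raises its processing in fibroblasts and it represses inhibitors of that signalling and of growth pathways, such as Smad7, Spry1 and Pdcd4. In lung it is known from fibroblasts, macrophages and epithelium. Whole lung RNA holds all of these cells, so that fewer cells of a type and less RNA per cell cannot be told apart.

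In RefSeq, Mir21a lies on the minus strand of chromosome 11 at chr11:86584067-86584158 (GRCm38.p6), inside the span of Vmp1, a protein-coding gene of autophagy transcribed from the same strand. The next genes are Gm46289, a long non-coding RNA at 6414 bases, and Tubd1 at 12459 bases. The hairpin of 92 bases is shown because it holds both arms, printed in capitals and separated by 16 bases.
Mir21a hairpin: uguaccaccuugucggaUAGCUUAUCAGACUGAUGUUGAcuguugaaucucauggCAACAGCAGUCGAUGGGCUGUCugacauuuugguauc

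Next to the 2 arms the array carried probes for 3 relatives, shown because a bright miR-21a-5p could also bind to them. Each line gives the target sequence from the array files, with the seed (bases 2 to 8, the part that pairs with target mRNAs) in capitals.
miR-21a-5p: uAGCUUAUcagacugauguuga
miR-21a-3p: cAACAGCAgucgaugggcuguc
miR-21b: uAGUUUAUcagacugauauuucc
miR-21c: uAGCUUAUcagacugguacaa
miR-590-5p: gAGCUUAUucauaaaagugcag
The seed AGCUUAU of miR-21a-5p was shared by miR-21c and miR-590-5p, and no other probe had the seed of miR-21a-3p. MiR-21c equals miR-21a-5p over its first 15 bases and then departs at A16G (miR-21a-5p base, position from the 5′ end, then the relative's base). MiR-21b differs at C4U, inside the seed, and at 3 bases near the 3′ end (G18A, G21U and A22C). The sequences of miR-21a-5p, miR-21a-3p, miR-21b and miR-21c were identical to those in RefSeq.

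MiR-21a-5p was a bright miRNA of the lung on every array, and miR-21a-3p was below the detection limit on every array. The intensity of miR-21a-5p above the median of the 800 empty spots was 9736, 8194 and 7579 in WT mice 1, 2 and 3. It was 11563, 10334 and 9709 in WT-BLM mice 1, 2 and 3, before any normalization between arrays. Every WT-BLM mouse was thus above WT mice 2 and 3, but WT-BLM mouse 3 was just below WT mouse 1. The means were 8503 ± 1112 (SD, n = 3) in WT and 10535 ± 943 (SD, n = 3) in WT-BLM lungs (exact permutation test, two-sided p = 0.20). With 3 against 3 mice this test cannot give a p under 0.10.

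The 6 arrays were not equally bright. On that of WT mouse 3 the median signal of the 275 tested probes was 129 above the empty spots, against 224 to 282 on the others, and only 132 probes were detected against 176 to 365. Values were therefore compared after quantile normalization of the log2 intensities. The probe of miR-21a-5p then stood at 13.34, 12.55 and 13.45 in WT mice 1, 2 and 3, against 13.74, 12.80 and 13.23 in WT-BLM mice 1, 2 and 3. The lowest value was that of WT mouse 2 and the highest that of WT-BLM mouse 1, and the groups overlapped. WT mouse 3 moved from the lowest of the 6 values before normalization to the second highest after it.

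The normalized mean of miR-21a-5p was 13.11 ± 0.49 (SD, n = 3) in WT and 13.25 ± 0.47 (SD, n = 3) in WT-BLM lungs. The log2 fold change of WT-BLM over WT was 0.14 with a standard error of 0.35, a fold of 1.10. In the limma fit over all 275 tested probes its Benjamini-Hochberg adjusted p was 1, and the unadjusted p of 0.698 put it at place 181 of 275. The 95% confidence interval ran from -0.67 to 0.95, or from 0.627-fold to 1.94-fold, which includes changes in either direction. Over all probes 0% (0 of 275) had an adjusted p under 0.05 and 1.82% (5 of 275) an unadjusted p under 0.05, while the methods' test gave 7 probes without and 9 with pairing at the latter limit. The median log2 fold change of the 275 probes was 0.04.

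**Figure D1:**
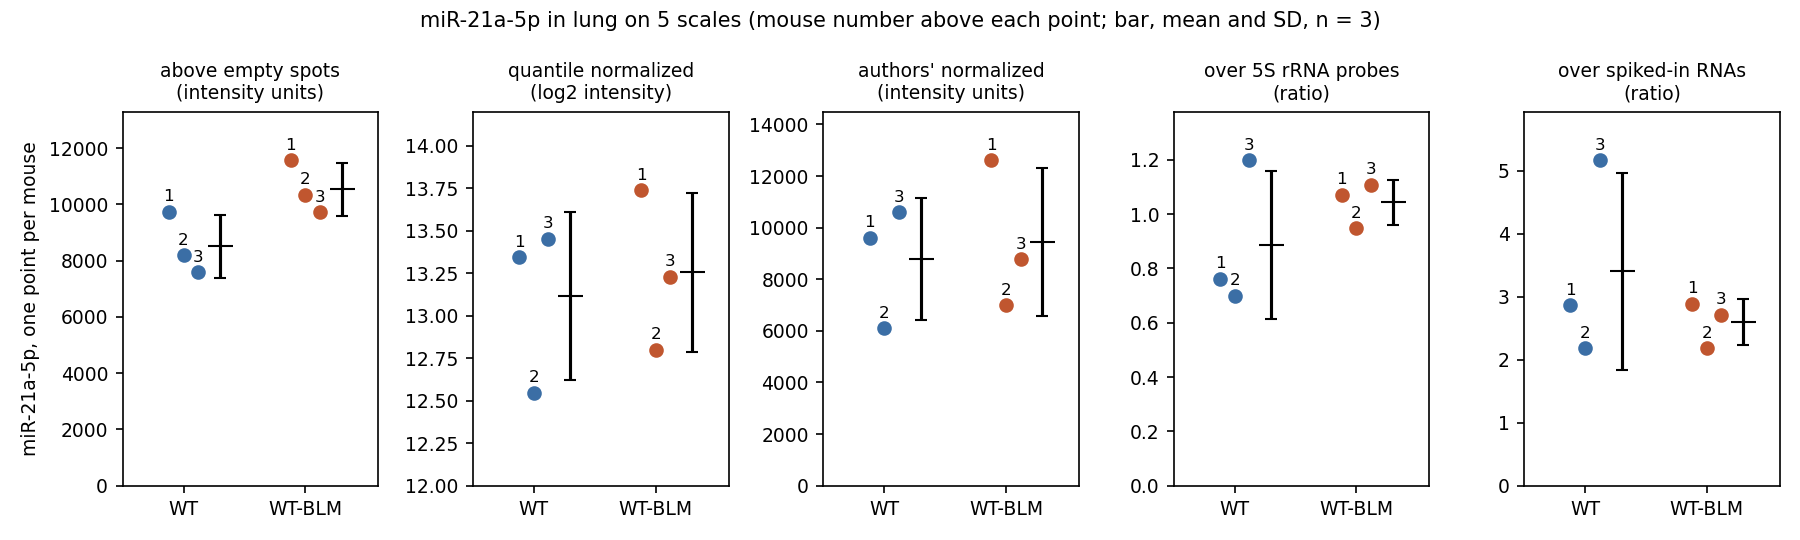
Level of miR-21a-5p in the lung of each mouse on 5 scales, with WT and WT-BLM on the x axis, the mouse number above each point, and the mean and SD (n = 3) beside the points. The 3 WT mice spread from 12.55 to 13.45 on the normalized log2 scale and the WT-BLM mice from 12.80 to 13.74, and WT mouse 3 is the lowest of the 6 before normalization but the highest relative to the spiked-in RNAs.

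The direction rested on single mice. Leaving out WT mouse 2 gave a log2 fold change of -0.15 (limma adjusted p = 0.955), and leaving out WT-BLM mouse 1 gave -0.11 (limma adjusted p = 0.999). With any of the other 4 mice omitted it stayed above 0, from 0.16 to 0.37. With no normalization between arrays it was 0.30 with a standard error of 0.24. WT mouse 2, the lowest mouse for miR-21a-5p, also carried the highest signal of miRNAs of heart and skeletal muscle. The summed normalized intensity of miR-1a-3p, miR-133a-3p and miR-206-3p was 11009 in that mouse, against 3311 and 1050 for WT mice 1 and 3. In WT-BLM mice 1, 2 and 3 it was 1986, 1316 and 1343. WT-BLM mouse 2, the second lowest mouse for miR-21a-5p, thus had the lowest sum of its group. MiR-1a-3p was detected on all 6 arrays, whereas miR-206-3p, the one restricted to skeletal muscle, was detected in 1 WT mouse and in no WT-BLM mouse. The part of muscle RNA in the low miR-21a-5p of WT mouse 2 was not tested.

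The array also gave references that do not come from the miRNAs themselves. Relative to the mean of the 5 probes for 5S ribosomal RNA, miR-21a-5p stood at 0.762, 0.700 and 1.20 in WT mice 1, 2 and 3, against 1.07, 0.948 and 1.11 in WT-BLM mice 1, 2 and 3. The spiked-in reference was the mean of the 14 control RNAs, of 43, that were detected on all 6 arrays. Relative to these spiked-in control RNAs the ratios were 2.86, 2.18 and 5.16 for the WT group, against 2.89, 2.18 and 2.71 for the WT-BLM group. Of the 5 scales plotted, the WT mean lay above the WT-BLM mean only on the spiked-in one, where WT mouse 3 was far above all others. The step at which the control RNAs were added is not given in the sources used here. On that scale the log2 fold change was -0.32 in limma, but the median of all 275 probes was at -0.55, so that miR-21a-5p was 0.24 above the median. Exact permutation tests gave a two-sided p of 0.40 for the 5S ratio and 0.70 for the spiked-in ratio.

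In the authors' own normalized intensities miR-21a-5p was 9609, 6104 and 10598 for WT mice 1, 2 and 3, against 12612, 6992 and 8770 for WT-BLM mice 1, 2 and 3. The order of the mice was the same as in the quantile-normalized values. The means were 8770 ± 2361 (SD, n = 3) and 9458 ± 2872 (SD, n = 3), with overlap between the groups (two-sided p = 0.80 in the exact permutation test).

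**Figure D2:**
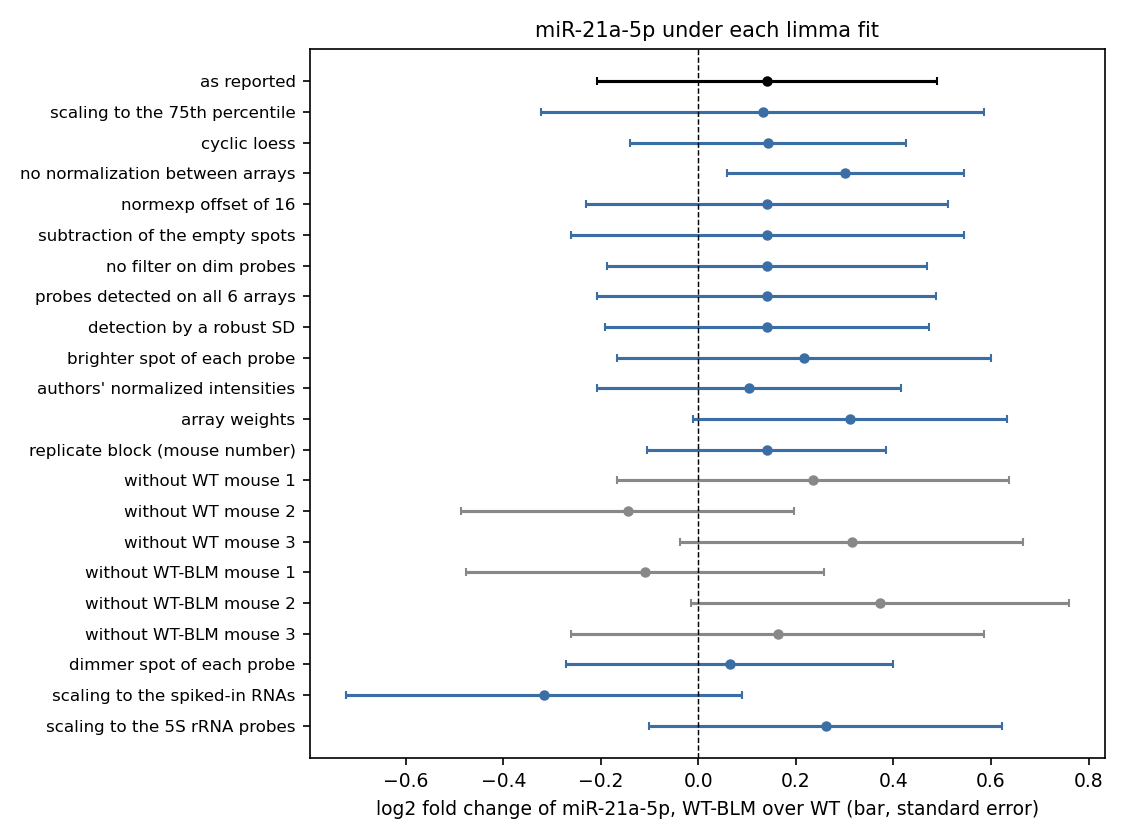
Log2 fold change of miR-21a-5p (x axis, WT-BLM over WT) with its standard error under each limma fit on the y axis, named by its processing or the mouse left out, while the methods' tests are not plotted. Values run from -0.32 with scaling to the spiked-in RNAs to 0.37 without WT-BLM mouse 2, around the 0.14 reported.

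MiR-21a-5p kept a high place in the order of brightness in both groups. Of the 1963 probes it held place 15, 27 and 13 in WT mice 1, 2 and 3, against place 9, 24 and 16 in WT-BLM mice 1, 2 and 3. In the authors' table the place varied from 11 to 28. It gave 1.84%, 1.22% and 2.28% of the summed signal of the detected probes for the WT group, against 2.41%, 1.40% and 1.80% for the WT-BLM group, where the number of detected probes differed between arrays. Brightness depends on how well each probe binds as well as on abundance, so that the place is one among probe signals and not among molecules.

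By the mean over 6 arrays miR-21a-5p was at place 18, with a log2 intensity of 13.18. Just above it were miR-709 at 13.22 and miR-24-3p at 13.19, and just below it let-7g-5p and miR-30e-5p, both at 13.09. MiR-21a-5p was brighter than miR-709 on 1 array, than miR-24-3p and let-7g-5p on 3, and than miR-30e-5p on 5 of 6. Its place relative to these neighbours was therefore within the spread between mice, which was 0.44 (SD over 6 arrays) for miR-21a-5p and 0.18 to 0.84 for the 4 neighbours.

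**Figure D3:**
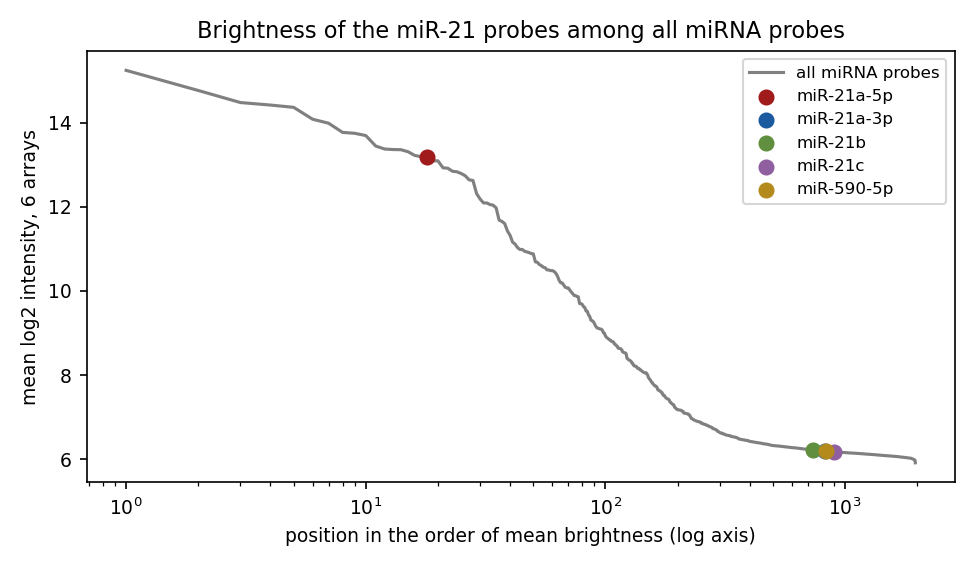
Mean log2 intensity over 6 arrays (y axis) of all 1963 miRNA probes in the order of brightness (x axis, log scale), with the miR-21 arms and relatives as coloured points. MiR-21a-5p lies at place 18 on the steep bright part, while miR-21a-3p at place 822 and the 3 relatives lie on the flat part at the background.

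MiR-21a-5p varied between mice of one group about as much as other bright miRNAs. Its pooled SD within groups was 0.48 on the log2 scale, against a median of 0.37 over the 275 tested probes and 0.40 over the 50 brightest. A larger SD was found for 90 of the 275 and 16 of the 50.

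Each probe was present on 2 spots, which for both arms lay in 1 row, 20 columns apart. For miR-21a-5p the spots read 9848 and 9872 in WT mouse 1, 8145 and 8399 in WT mouse 2, and 8171 and 7296 in WT mouse 3. In WT-BLM mice 2 and 3 they read 10686 and 10203, and 9810 and 9707. The brighter spot was 1.00 to 1.12 times the dimmer one on these 5 arrays. The exception was WT-BLM mouse 1, the highest mouse, where the spots read 13870 and 9532, a ratio of 1.46. On that array 42 of the 275 tested probes had spots that differed more. The spread of brightness within the spots was 5.94% and 8.33% of their intensity on that array, against 4.16% to 8.28% for miR-21a-5p on the others, so that neither spot stood out by it. With the brighter spot of every probe the log2 fold change was 0.22, and with the dimmer spot it was 0.06.

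**Figure D4:**
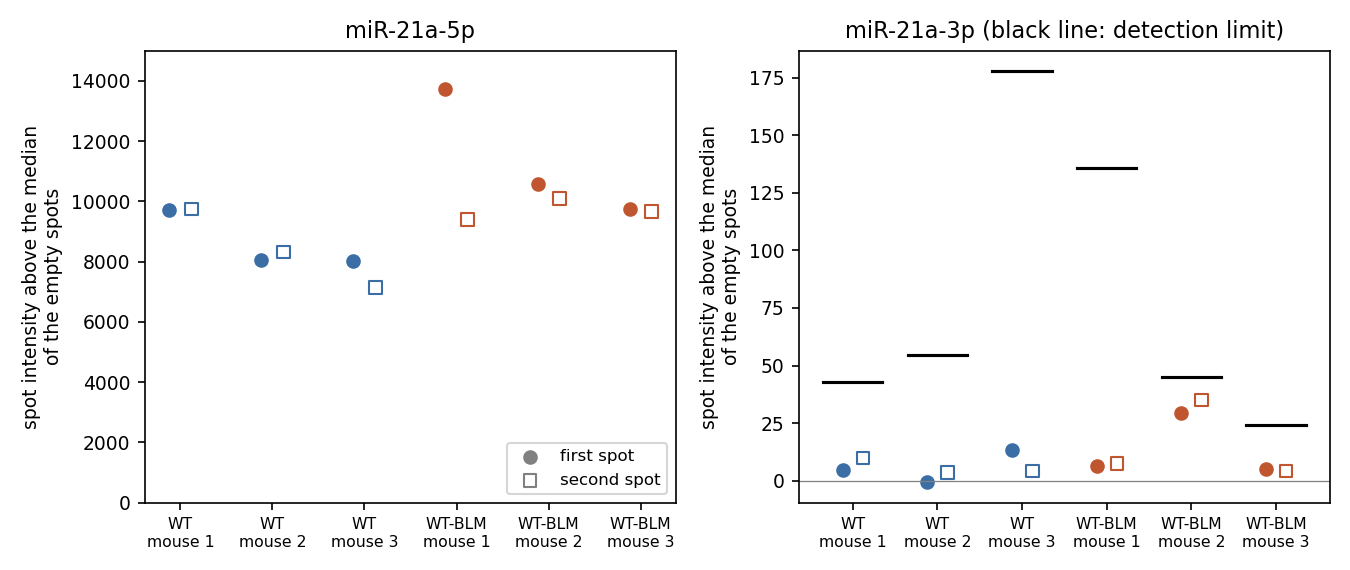
Intensity of both spots of miR-21a-5p (left) and miR-21a-3p (right) above the median of the empty spots (y axis) on each of the 6 arrays (x axis), with the detection limit of each array as a black line at right. The spots of miR-21a-5p lie close together except in WT-BLM mouse 1, and both spots of miR-21a-3p lie below the limit on all 6 arrays.

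MiR-21a-3p, the passenger arm, was not detected in any mouse. Its mean intensity above the empty spots was 7.16, 1.44 and 8.87 in WT mice 1, 2 and 3, against 6.88, 32.3 and 4.62 in WT-BLM mice 1, 2 and 3. The detection limit, 3 times the SD of the empty spots, was 42.9, 54.4 and 178 above their median on the WT arrays and 136, 45.1 and 24.0 on the WT-BLM arrays. The highest value, in WT-BLM mouse 2, was thus 0.717 of the limit. Its 2 spots agreed there, at 29.5 and 35.1, and 2% of the empty spots of that array were brighter. This share was 8.6%, 34.6% and 33.0% in WT mice 1, 2 and 3, against 10.6% and 5.6% in WT-BLM mice 1 and 3. With a limit from the robust SD (MAD) of the empty spots, miR-21a-3p was detected in WT-BLM mouse 2 only. Both groups were below the limit of 3 SD on all 6 arrays, so that no fold between them is read from miR-21a-3p. In the authors' table it stood at 2, 0 and 9 for the WT group, against 1, 12 and 4 for the WT-BLM group.

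The arms therefore differed by at least the distance of miR-21a-5p from the detection limit. The signal of miR-21a-5p was 227, 151 and 42.6 times the limit in WT mice 1, 2 and 3, against 85.2, 229 and 404 times in WT-BLM mice 1, 2 and 3. These multiples follow the noise of each array, and they bound the ratio of 2 probe signals rather than of molecules, because probes differ in binding. The log2 difference between the arms was computed in each group (WT-BLM minus WT 0.08; exact permutation test, two-sided p = 1), but nothing is read from it, since the 3p probe gave no level above the limit.

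The relatives of miR-21a-5p were not detected on any array either, while with the robust SD miR-21b was detected on 2 arrays and miR-21c and miR-590-5p on 1 each. Above the empty spots, miR-21b reached at most 28.4, miR-21c 20.7 and miR-590-5p 31.8. In no mouse did the signal of a relative exceed 0.327% of that of miR-21a-5p on the same array. That held for miR-21c too, whose target equals miR-21a-5p over its first 15 of 21 bases and differs at 5 of the later ones.

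No marker of the cell types known for miR-21 had an adjusted p under 0.05 in limma, and neither had any other of the 275 probes (0%). All 5 leukocyte miRNAs of the list (miR-142a-3p, miR-142a-5p, miR-223-3p, miR-150-5p and miR-155-5p) were tested, and their summed normalized intensity was 4889 to 5227 in WT and 4378 to 6011 in WT-BLM mice. The summed intensity of 5 miRNAs of mesenchymal cells was 27206 to 34797 in WT and 21716 to 28671 in WT-BLM mice, where the bright miR-143-3p and miR-145a-5p made up most of the sum. Of these 5, miR-143-3p had a log2 fold change of -0.88, miR-145a-5p, miR-199a-3p and miR-214-3p of -0.05, -0.09 and -0.14, and miR-199a-5p of 0.40. For 6 epithelial miRNAs the sum was 5964 to 9423 and 7582 to 9065, for 3 erythroid ones 13297 to 20558 and 15713 to 20432, and for both arms of endothelial miR-126a 7120 to 16603 and 16164 to 21746. The part of these cell types in the level of miR-21a-5p was not tested. MiR-126a-3p had a log2 fold change of 0.76 with a standard error of 0.34 (limma unadjusted p = 0.0582, adjusted p = 1), and its groups overlapped. This probe and the epithelial miR-200a-3p, miR-200b-3p and miR-200c-3p were detected on all 6 arrays. Of miRNAs of other organs, liver miR-122-5p and brain miR-124-3p were each detected on 1 array and brain miR-9-5p on none.

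Of 7 other miRNAs, chosen because they are described as profibrotic and with earlier results of these data known, 5 passed the filter. None had an adjusted p under 0.05 in limma, the WT-BLM mean was the higher for 4 of the 5 and for 56.4% of all 275 probes, and the median log2 fold change was 0.14, against 0.04 over all probes. MiR-34a-5p, a p53 target linked to senescence of alveolar cells, was at 8.04 ± 0.17 (SD, n = 3) in WT and 8.61 ± 0.23 in WT-BLM lungs. Its limma unadjusted p was 0.0397, where 1.82% (5) of the 275 probes had one under 0.05. MiR-199a-5p, which represses caveolin, was at 9.89 ± 0.23 and 10.29 ± 0.14 (limma unadjusted p = 0.117). For these 2 the groups did not overlap, as for 4.73% (13) of the 275 probes. The authors list both among the miRNAs dysregulated in WT-BLM lungs on these arrays. MiR-155-5p, an inflammatory miRNA, had a log2 fold change of 0.14, which was that of miR-21a-5p to 2 decimals.

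Of 10 miRNAs described as antifibrotic, 9 were tested. None had an adjusted p under 0.05 in limma, as for all 275 probes (0%). Of the 9, 5 were higher and 3 were lower, where 56.4% of all 275 probes were higher. The median log2 fold change of the 9 was 0.11, against 0.04 over all probes. The ninth, miR-26a-5p, was the brightest of all probes by the mean over 6 arrays, where quantile normalization sets the value, so that its difference is not read. The largest differences were 0.71 for miR-29c-3p, of the family that represses collagens, and 0.63 for miR-200a-3p, which represses the Zeb factors of epithelial transition, and for both the groups overlapped. The log2 fold change of miR-21a-5p fell inside the range of both lists.

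**Figure D5:**
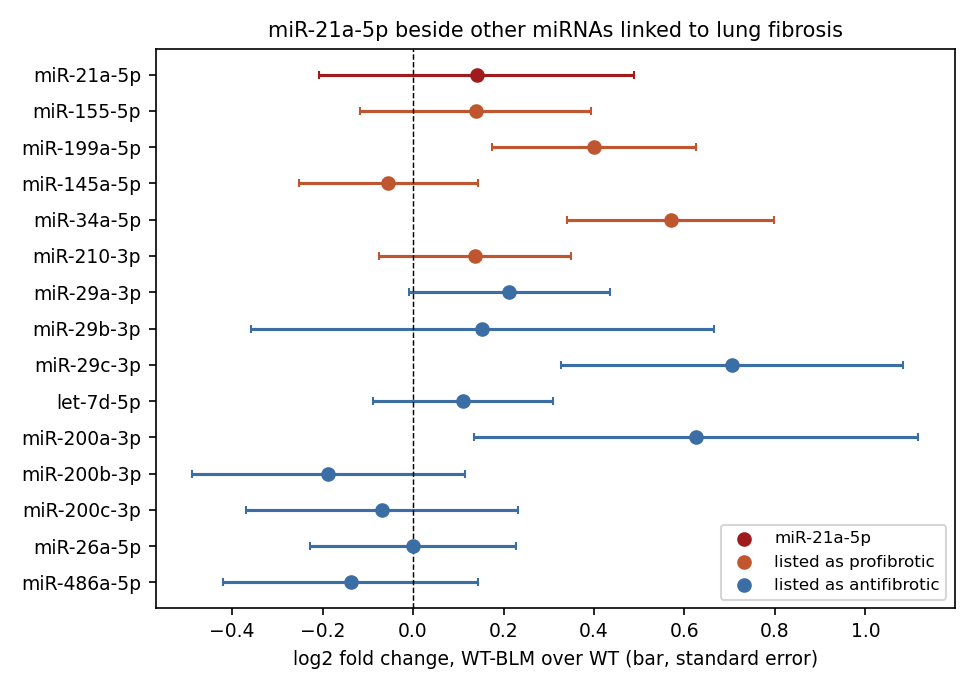
Log2 fold change with its standard error (x axis, WT-BLM over WT, 3 mice per group) of miR-21a-5p and of the tested miRNAs listed as profibrotic or antifibrotic (y axis). MiR-21a-5p at 0.14 lies between miR-145a-5p at -0.05 and miR-34a-5p at 0.57 of the profibrotic list.

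The tested probes whose normalized log2 intensity followed miR-21a-5p most closely over the 6 arrays were miR-199a-3p (Pearson r = 0.93), miR-497a-5p (0.92), miR-429-3p (0.86), miR-200c-3p (0.81) and miR-155-5p (0.81). This is a description over 6 arrays that share their normalization. Without normalization r was 0.63, 0.78, 0.89, 0.08 and 0.73 in the same order, so that the likeness of miR-200c-3p rested on it. WT mouse 2 was the lowest of the 6 mice for 4 of these probes, as for miR-21a-5p, and the second lowest for miR-199a-3p. WT-BLM mouse 2 was the second lowest for those 4 probes, as for miR-21a-5p, and the lowest for miR-199a-3p. The probes were picked by r over these same arrays, so that sharing the low mice of miR-21a-5p is part of that choice. In WT mouse 2 miR-199a-3p was at 11.60 against 12.41 and 12.23 in WT mice 1 and 3, and miR-497a-5p at 9.72 against 10.25 and 10.39. In WT-BLM mouse 2 miR-199a-3p was at 11.59 against 12.41 and 11.99 in WT-BLM mice 1 and 3. Their log2 fold changes were between -0.09 and 0.15, each with a limma adjusted p of 1.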

How the data were processed

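MiRNA was profiled in lungs of 3 WT and 3 WT-BLM mice, grouped by the sample labels, with 1 array per mouse. The members and lists were chosen with earlier results of these data known. For every spot the authors deposited a median intensity that had no background subtracted. They also deposited normalized intensities rounded to whole numbers, by a method not given in the sources used here. Of 5022 spots per array, 3926 held the 1963 miRNA probes, 800 were empty, 276 measured spiked-in RNAs and 20 measured 5S rRNA. With limma 3.58.1 in R 4.3.3, all spots were corrected by normexp (offset 50, which shrinks changes of dim probes), log2 values of miRNA spots were quantile normalized, and the 2 spots of a probe were averaged. A probe counted as detected when its mean lay over 3 SD above the median empty spot. The 275 probes detected on 3 or more arrays entered lmFit and eBayes, and p-values were adjusted by Benjamini-Hochberg. Exact permutation tests over mice were used for single values. The correction, normalization and fit were also run on simulated data with planted changes of 2 log2 units and the tested probes given. That run does not cover changes as small as that of miR-21a-5p, nor the detection filter. Besides both arms, the text names relatives by name or seed, neighbours in brightness, the 5 probes most like miR-21a-5p, and lists of fibrosis-linked and cell type miRNAs. MiRNA names come from the files, and gene positions from RefSeq. No slide or scan is given. Other normalizations, filters, tests and omissions of mice were tried.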

Additional observations from a re-analysis of the deposited data

How the results depend on the processing

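Of 23 alternatives, 20 were planned and 3 (scaling to the spiked-in RNAs, scaling to the 5S rRNA probes, and the dimmer spot) were added once the values were known. No slide or scan could be used as a block. No probe had an adjusted p under 0.05 under any of the 23 in limma or the methods' test. The log2 fold change of miR-21a-5p (0.14) was above 0 in 20 of 23 and ranged from -0.32 to 0.31 over those that kept every mouse, with an adjusted p of 0.551 to 1. It reversed to -0.32 with scaling to the spiked-in RNAs, where the median of all probes was -0.55. Scaling to the 75th percentile moved that median to -0.11, with miR-21a-5p at 0.13. Omitting single mice gave -0.15 to 0.37. With no normalization it was 0.30, and with array weights 0.31. MiR-21a-3p was below the detection limit, except in WT-BLM mouse 2 with the robust SD, so that its values and those of the arm difference (5p minus 3p) show the background, carry no direction and are given for completeness. For miR-21a-3p the value moved from 0.07 to -0.19 with scaling to the 75th percentile, to 0.57 with subtraction of the empty spots and to -0.64 with scaling to the spiked-in RNAs. The arm difference went from 0.08 to -0.43 with subtraction of the empty spots and to -0.043 with the dimmer spot. Omitting single mice gave -0.23 to 0.39, where only the values without WT mouse 2 or without WT-BLM mouse 1 were below 0. The cause of these shifts was not tested. Mice of equal number were not treated as pairs, since the 2 groups are different animals. Deviations from the group mean correlated by 0.16, 0.03 and 0.07 between mice of equal number. For miR-21a-5p itself mouse 2 was the lowest in both groups, at 12.55 in WT and 12.80 in WT-BLM. With the replicate block its log2 fold change was 0.14 with a standard error of 0.24, against 0.35 without the block. With that block 8 probes had an unadjusted p under 0.05 against 5. Without a filter on dim probes 46 of 1963 had, with array weights 14, with a robust SD 12 of 570, with scaling to the spiked-in RNAs 28, and without WT mouse 3, where 274 were tested, 20. Noise of the empty spots limits what can be said of miR-21a-3p, most of all on the array of WT mouse 3.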
